A study of Mus musculus with 8 samples.

Results

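The 10 genes described here encode enzymes and carriers of the glutathione and thioredoxin defense, chosen by name from the 16889 genes of the table, and all 10 were measured and passed the filter on low counts. They are the glutamate-cysteine ligase subunits Gclc and Gclm, glutathione reductase (Gsr), the glutathione peroxidases Gpx1 and Gpx4, the membrane-bound glutathione transferase Mgst1, thioredoxin (Txn1), thioredoxin reductase (Txnrd1), peroxiredoxin 1 (Prdx1) and sulfiredoxin (Srxn1). Single-cell RNA sequencing was done on CD11b+ cells of the colonic lamina propria sorted for CCR2 or CD64, from 8 female CD98hcΔCX3CR1 mice of 6 to 12 weeks of age. All of the mice carried CD98hc flox/flox and Cx3cr1CreER-YFP, which places a tamoxifen-inducible Cre in cells that express the fractalkine receptor gene Cx3cr1. The 4 control mice (replicates 1 to 4) were injected with corn oil and the 4 cKO mice (replicates 5 to 8) with tamoxifen at 20 mg/ml in corn oil, on 5 consecutive days, and cells were taken on day 7. Tamoxifen was given to the cKO mice only, so its own effect and that of the deletion cannot be told apart.

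Glutathione is a tripeptide of glutamate, cysteine and glycine, and in most cells the supply of cysteine limits how much of it is made. Cystine, the oxidised pair of cysteines, enters through a transporter whose light chain is Slc7a11 and whose heavy chain is CD98hc, the protein encoded by Slc3a2. Peroxidases spend glutathione on peroxides and glutathione reductase restores it, while thioredoxin does the same service for peroxiredoxins and is itself restored by thioredoxin reductase. Myeloid cells of the gut make peroxides as part of their defense and keep both systems for their own protection.

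After filtering, 3213 cells were kept, with 85 to 724 cells and 589135 to 3762314 UMIs (counted molecules) per control mouse and 83 to 484 cells and 497531 to 2486236 UMIs per cKO mouse. Control replicate 3 and cKO replicate 5 were the smallest, with 85 and 83 cells, and 24 of the 73 doublet calls fell in cKO replicate 5. A total of 25 cell barcodes were shared by wells. The median share of mitochondrial UMIs per mouse was 1.58 to 1.71% in control and 1.36 to 1.54% in cKO mice, without overlap. Summed levels of all 9 monocyte markers were 1412 to 2928 counts per 1000000 UMIs (CPM) in control and 6864 to 9981 CPM in cKO mice, and those of 11 dendritic cell markers were 1353 to 1793 CPM and 502 to 730 CPM, both without overlap. The 6 neutrophil markers summed to 24.2 to 49.5 CPM in control and 53.8 to 86.9 CPM in cKO mice, and the 14 macrophage markers to 12092 to 23836 CPM and 10000 to 16172 CPM. The 11 lymphoid and plasma cell markers measured summed to 129 to 8804 CPM in control and 4285 to 12961 CPM in cKO mice, and the 6 stromal markers to 610 to 2137 CPM and 198 to 766 CPM. None of these markers was at 0 over all mice. The part of the markers, the mitochondrial share and the doublet calls in the results below was not tested, except where a value without those cells is given.

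Slc3a2, the targeted gene, had 358, 264, 233 and 493 CPM in the control mice and 291, 357, 323 and 309 CPM in the cKO mice, and the groups overlapped (log2 fold change 0.02 ± 0.21 SE, adjusted p = 0.976, quasi-likelihood test of edgeR, p adjusted by Benjamini-Hochberg over all genes as in every edgeR value below). Cre removes exon 3, whereas the reads count the 3′ end of a transcript, so these levels do not check the deletion. Within the classes described next, the log2 fold change of Slc3a2 ran from -1.0 ± 0.29 SE in cluster 5 (adjusted p = 0.177) to 0.43 ± 0.27 SE in lymphoid-like cells (adjusted p = 0.808), and none passed the test. It had 340, 307 and 415 CPM in control and 259, 285 and 271 CPM in cKO monocyte-like cells. In cluster 5 it had 654 and 910 CPM against 396, 317 and 393 CPM. The groups did not overlap in these classes, as in 12.2% and 22% of all genes tested there, and overlapped in the other classes compared. Slc7a11 had a mean of 85.6 ± 53.2 CPM (SD, n = 4) in control and 172 ± 80.1 CPM (SD, n = 4) in cKO mice, with a log2 fold change of 1.14 ± 0.43 SE that did not pass the test (adjusted p = 0.155). Within classes its control and cKO means were 167 and 119 CPM in monocyte-like cells and 118 and 85.2 CPM in cluster 1. They were 22.2 and 17.9 CPM in dendritic cell-like and 16.6 and 4.68 CPM in low-depth macrophage-like cells. In cluster 5 they were 339 and 364 CPM, and in lymphoid-like cells 4.84 and 18.9 CPM. These class means are given as a description.

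The cells fell into 9 clusters, formed without the genes described here and without the pathway lists. Monocyte-like cells (407 cells) were led by Chil3, Ly6c2 and F13a1, macrophage-like cells (393 cells) by Fcrls, Pf4, C1qc and C1qa, and dendritic cell-like cells (531 cells) by Cd209a, Xcr1 and Flt3. A further 238 cells with macrophage markers were shallow, at a median of 0.234 of the UMIs usual for cells of the same mouse, and are called low-depth macrophage-like. Lymphoid-like (179 cells) and stromal-like cells (86 cells) were also found, although the sort was for CD11b+ cells. Cluster 1 (830 cells; Hes1, Klf2, Ccr2), cluster 5 (360 cells; Ccl24, Saa3, Arg1, Il1rn) and cluster 7 (189 cells; Dmkn, Slpi, Il1a, F10) are named by number and leading genes. Of the 189 cells of cluster 7, 184 came from cKO mice, so in these cells the class and the condition cannot be told apart. Monocyte-like cells were 2.35 to 9.84% of the cells of a control mouse and 14.5 to 21.1% of those of a cKO mouse, while dendritic cell-like cells were 20.4 to 27.7% and 4.55 to 9.68%.

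The first comparison asked whether the defense genes differed between cKO and control mice in all cells summed per mouse. Gsr, Mgst1 and Srxn1 were higher in cKO mice, and none of the 10 genes was lower. Of all 11387 genes tested, 2.99% were called higher and 1.48% lower by the same test. The 3 genes called stand for the regeneration of glutathione, the membrane-bound use of glutathione and the repair of peroxiredoxins. At an unadjusted p under 0.05 no member was lower, and DESeq2 called none lower either. In a sum over all cells, fewer cells of a type and less RNA per cell cannot be told apart.

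Gsr (chr8:33652523-33698163 on GRCm38, plus strand) restores reduced glutathione with NADPH. It had 41.5, 19.0, 50.9 and 67.6 CPM in control replicates 1 to 4 and 64.3, 146, 212 and 111 CPM in cKO replicates 5 to 8. The small library of cKO replicate 5 lay just below the highest control mouse, and the other cKO mice lay above all control mice. The log2 fold change was 1.74 ± 0.39 SE (adjusted p = 0.0295, edgeR). The call was lost on leaving out control replicate 1, control replicate 2, cKO replicate 6, cKO replicate 7 or cKO replicate 8 (adjusted p = 0.0920, 0.0749, 0.0638, 0.0920 and 0.0530), while the log2 fold change stayed between 1.41 and 2.08. Without both libraries under 100 cells it was 2.01 (adjusted p = 0.0315), and over all alternatives the adjusted p ran from 0.00187 to 0.0920.

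Mgst1 (chr6:138140316-138156755, plus strand) is a transferase and peroxidase of inner membranes. Control mice had 80.8, 47.4, 42.4 and 84.1 CPM, and cKO mice had 105, 129, 217 and 125 CPM. Every cKO mouse lay above every control mouse. Mgst1 was the only 1 of the 10 members without overlap between the groups, and 12.3% of all genes tested had none, in either direction. The log2 fold change was 1.27 ± 0.27 SE (adjusted p = 0.0248, edgeR). Leaving out control replicate 1, control replicate 2 or cKO replicate 7 ended the call (adjusted p = 0.0525, 0.0903 and 0.0718), with the adjusted p between 0.00305 and 0.0903 over all alternatives. Without both small libraries it was 1.29 (adjusted p = 0.0432).

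Srxn1 (chr2:152105516-152111376, plus strand) reduces over-oxidised peroxiredoxins, and it was sparse, with 169 UMIs in all. Control mice had 4.52, 4.89, 5.09 and 8.41 CPM, and cKO mice had 6.03, 11.5, 23.3 and 12.2 CPM. Control replicate 4 lay above cKO replicate 5, and cKO replicate 7 was the highest. The log2 fold change was 1.44 ± 0.37 SE (adjusted p = 0.0473, edgeR), close to the threshold of 0.05. The call was lost without control replicate 1, 2 or 3, or cKO replicate 6, 7 or 8 (adjusted p = 0.146, 0.162, 0.0681, 0.0679, 0.199 and 0.0767), and without cKO replicate 7 the log2 fold change was 0.99. It was also lost without doublet calls (adjusted p = 0.0579) and with cells of up to 10% mitochondrial UMIs (adjusted p = 0.0686). Without both small libraries it was 1.58 (adjusted p = 0.0516), and the adjusted p ran from 0.0173 to 0.199 over all alternatives.

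Txnrd1 (chr10:82833951-82897712, plus strand), the reductase that returns electrons to thioredoxin, did not pass the test. Its values were 29.2, 26.9, 42.4 and 52.5 CPM in control mice and 46.2, 55.0, 101 and 69.6 CPM in cKO mice. Only cKO replicate 5 lay within the range of the control mice. The log2 fold change was 1.02 ± 0.28 SE (adjusted p = 0.0620, edgeR). It passed with DESeq2 (adjusted p = 0.0452), with no filter on low counts (adjusted p = 0.0186) and without control replicate 4 (adjusted p = 0.0209), and was as high as 0.205 without cKO replicate 7.

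The other 6 members did not pass the test and overlapped between the groups. Gpx1 (chr9:108338903-108340343, plus strand), the cytosolic glutathione peroxidase, had 823 to 1087 CPM in control and 808 to 1099 CPM in cKO mice (log2 fold change 0.17 ± 0.14 SE, adjusted p = 0.545). Gpx4 (chr10:80047166-80056439, plus strand), which reduces lipid peroxides in membranes, had 239 to 368 CPM and 305 to 359 CPM (0.11 ± 0.15 SE, adjusted p = 0.729). In GENCODE transcripts, 86.9% of the 58-base windows in the last 500 bases of Gpx4 are shared with its pseudogene Gpx4-ps2 or with AC122253.3, whereas none was shared for the other members. The reads were counted with another annotation, and how such reads were assigned was not checked, so the level of Gpx4 is uncertain. Txn1 (chr4:57943373-57956411, minus strand) had 355 to 526 CPM in control and 382 to 518 CPM in cKO mice (0.13 ± 0.16 SE, adjusted p = 0.702).

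Prdx1 (chr4:116685544-116700822, plus strand), a peroxidase fed by thioredoxin, had 589 to 787 CPM in control and 645 to 1092 CPM in cKO mice (log2 fold change 0.32 ± 0.17 SE, adjusted p = 0.303). Gclc (chr9:77754535-77794485, plus strand), the catalytic subunit of the first step of glutathione synthesis, had only 105 UMIs in all, with 4.89 to 8.41 CPM in control and 2.01 to 7.64 CPM in cKO mice (-0.12 ± 0.36 SE, adjusted p = 0.903). Gclm (chr3:122245557-122270732, plus strand), its modifier subunit, had 12.8, 11.01, 66.2 and 22.9 CPM in control and 62.3, 21.8, 12.5 and 17.9 CPM in cKO mice (0.16 ± 0.59 SE, adjusted p = 0.917). Its highest values in either group were those of the smallest library, control replicate 3 and cKO replicate 5. Without both of these libraries the log2 fold change of Gclm was 0.27 (adjusted p = 0.647).

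**Figure D1:**
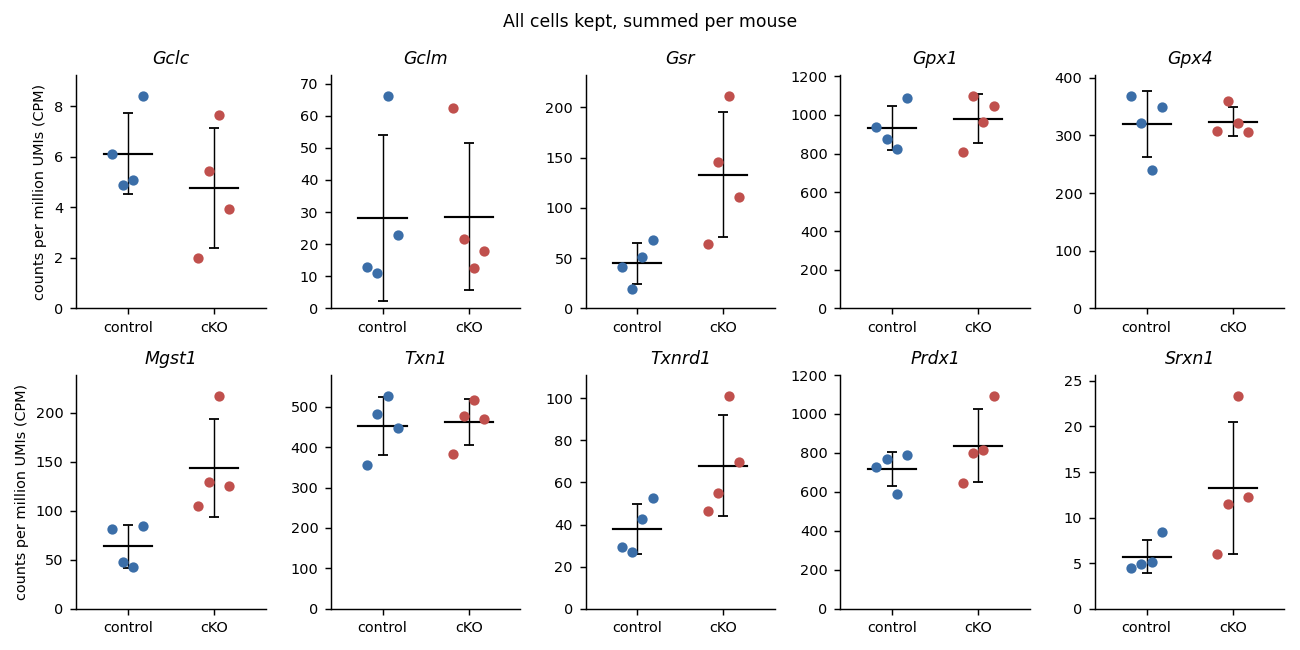
Level of each gene in counts per 1000000 UMIs (y axis, from 0) over all cells of each of 4 control (blue) and 4 cKO mice (red), with the mean as a bar and the SD as whiskers (n = 4). Mgst1 does not overlap between the groups, and the single high points of Gclm are the 2 smallest libraries.

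NRF2, a factor that many genes of this defense respond to, binds with small Maf proteins to the antioxidant response element, whose core reads TGACNNNGC. A promoter window of 250 bases before to 50 bases after a transcript start was given by RefSeq (GRCm38.p6) for 8 of the 10 members, with no entry matched for Gclc and Gsr. The letters were found on either strand in the windows of 5 of the 8 genes (Gclm, Mgst1, Prdx1, Srxn1 and Txnrd1), and in those of 14% of 27025 genes with such windows. The start is that of a RefSeq transcript, and Mgst1, Txnrd1 and Gpx4 have more than 1. The match was in 1 of 2 windows of Mgst1, 1 of 3 of Txnrd1 and 0 of 4 of Gpx4. Of 32851 windows over all genes 12.4% held a match, and a gene with more windows has more chances of one. Stretches of 25 bases around the match are printed 5′ to 3′ on the plus strand for the 4 genes where it lies before the start, to show how the same letters stand in genes that moved (Mgst1) and that did not pass the test (Gclm, Prdx1, Txnrd1). Capitals mark the 9 letters of the match, which is read on the opposite strand.
Gclm (chr3:122245415-122245439): tcccgggcGCACCGTCAactctcac
Mgst1 (chr6:138140463-138140487): ggggcttgGCACGGTCAggaggcgg
Prdx1 (chr4:116685458-116685482): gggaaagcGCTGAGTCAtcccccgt
Txnrd1 (chr10:82859106-82859130): ggatttttGCTTTGTCAttctgaca
In Srxn1 the match lies 28 bases after the start. These matches are letters in a window, and whether NRF2 binds there in these cells was not measured.

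The second question was in which cells the genes were expressed, and the spread between the classes differed widely between members. Levels were averaged over the mice with at least 20 cells of a class, and are given as a description. The sums came from 4 control and 4 cKO mice for cluster 1, 4 and 3 for dendritic cell-like, 3 and 3 for monocyte-like, low-depth macrophage-like and lymphoid-like cells, and 2 and 3 for cluster 5. Those of macrophage-like cells came from 3 control mice only and those of cluster 7 from 3 cKO mice only, so the order of the classes is partly one of conditions. Stromal-like cells reached 20 cells in 1 control mouse, and they stand outside the orders and ranges below unless named. Between the highest and the lowest class mean above 0, Mgst1 differed 113-fold and Gsr 23.0-fold, whereas Txn1 differed 1.95-fold and Gpx4 2.01-fold. The plot of mean levels by class shows Mgst1 and Gsr as the genes with the sharpest steps.

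Mgst1 was highest in monocyte-like cells, with 470 ± 111 CPM (SD, n = 6 mice), followed by cluster 7 with 274 ± 19.5 CPM (SD, n = 3). The lowest monocyte-like sum, 302 CPM, lay above the highest of cluster 7, 296 CPM, and the lowest of cluster 7 lay above all other classes with more than 1 mouse. Cluster 1 had 52.4 ± 22.9 CPM (n = 8), macrophage-like cells 16.5 ± 6.35 CPM (n = 3) and dendritic cell-like cells 4.16 ± 3.55 CPM (n = 7). From cluster 1 downwards, neighbouring classes overlapped. Stromal-like cells of the 1 mouse with enough of them had 506 CPM.

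Gsr was highest in cluster 7, with 339 ± 15.4 CPM (SD, n = 3), ahead of monocyte-like cells with 221 ± 73.8 CPM (n = 6), cluster 5 with 128 ± 20.7 CPM (n = 5) and cluster 1 with 82.0 ± 47.8 CPM (n = 8). Macrophage-like cells had 22.1 ± 13.4 CPM (n = 3), dendritic cell-like cells 18.1 ± 14.8 CPM (n = 7) and lymphoid-like cells 14.8 ± 9.68 CPM (n = 6). Each class overlapped with the next one in this order. The monocyte-like mean was 175 CPM over the control and 268 CPM over the cKO mice. In all 86 stromal-like cells no UMI of Gsr was counted, which allows a level of up to 7.05 CPM (3 UMIs over the class, counting error only).

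Txnrd1 was highest in cluster 7, at 150 ± 12.6 CPM (SD, n = 3), and in cluster 5, at 117 ± 47.1 CPM (n = 5), and these overlapped. Monocyte-like cells had 44.1 ± 10.4 CPM (n = 6), and the remaining classes had means of 21.1 to 57.2 CPM. Srxn1 had its highest mean in cluster 7 as well, at 23.8 ± 11.6 CPM (n = 3), but all neighbours in its order overlapped. Slc7a11, the light chain of the cystine transporter, had 535 ± 108 CPM in cluster 7 (n = 3), 354 ± 131 CPM in cluster 5 (n = 5) and 143 ± 38.2 CPM in monocyte-like cells (n = 6), against 66.2 ± 57.7 CPM in macrophage-like cells (n = 3).

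Gpx1 was highest in monocyte-like cells, at 1571 ± 214 CPM (SD, n = 6), where every sum lay above those of cluster 7, at 1132 ± 96.7 CPM (n = 3). The lowest mean of Gpx1 over more than 1 mouse was that of lymphoid-like cells, at 307 ± 108 CPM (n = 6), which lay below every sum of the macrophage-like cells, and the 1 stromal-like sum was at 239 CPM. Gpx4 ranged from 256 CPM in dendritic cell-like to 514 CPM in monocyte-like cells, and Txn1 from 306 CPM in macrophage-like cells to 595 CPM in cluster 7, with all neighbours overlapping, while the 1 stromal-like sum of Gpx4 was at 590 CPM. Prdx1 was highest in the low-depth macrophage-like cells, with 1863 ± 160 CPM (n = 6), above every sum of the macrophage-like cells of usual depth, at 961 ± 225 CPM (n = 3).

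Neither subunit of glutamate-cysteine ligase separated the classes. Gclm had means of 6.48 CPM in cluster 7 to 32.6 CPM in low-depth macrophage-like cells, and all neighbours overlapped. Gclc had means of 3.52 CPM in monocyte-like to 18.6 CPM in lymphoid-like cells, and no UMI in the 238 low-depth macrophage-like cells, which allows up to 9.66 CPM. With 105 UMIs of Gclc in all, its differences between classes were not tested, and all neighbours with a mean above 0 overlapped.

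**Figure D2:**
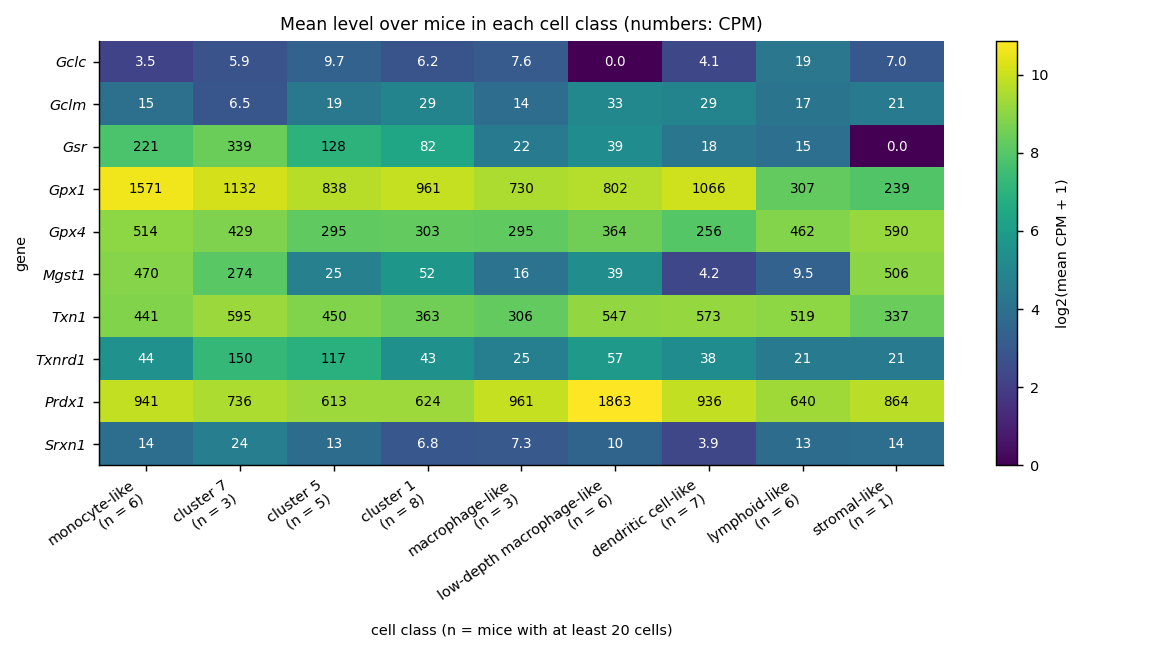
Mean level of each gene (rows) in each cell class (columns) over the mice with at least 20 cells of the class, with the number of mice under each column, coloured by log2(mean CPM + 1) and printed in CPM. Mgst1 and Gsr are high in monocyte-like cells and cluster 7 and low in dendritic cell-like and lymphoid-like cells. Txn1 and Gpx4 have the smallest spread, 1.95-fold and 2.01-fold between the highest and lowest mean of classes with more than 1 mouse.

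Monocytes that enter the colonic wall mature into macrophages, and the 3 control mice with at least 20 cells of both classes (replicates 1, 2 and 4) allowed the ends of this path to be set side by side within a mouse. Mgst1, Gsr, Gpx1 and Gpx4 were higher in monocyte-like than in macrophage-like cells, and no member was lower at an adjusted or an unadjusted p under 0.05, nor with DESeq2. Of 10263 genes tested, 6.76% were called higher and 7.59% lower in monocyte-like cells. Classes were formed from other genes of these same cells, so the p-values are no independent test of the class difference. They use a spread between mice estimated over all genes, and the spread of a single gene over the 3 mice hardly enters.

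Mgst1 had 547, 302 and 589 CPM in the monocyte-like cells of the 3 mice and 23.6, 11.5 and 14.4 CPM in their macrophage-like cells (log2 fold change 4.63 ± 0.25 SE, adjusted p = 1.25e-74, edgeR with the mouse as a block). Gsr had 124, 164 and 236 CPM against 21.1, 9.18 and 35.9 CPM (2.97 ± 0.30 SE, adjusted p = 7.70e-22). In both genes the classes lay far apart in 3 of 3 mice.

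Gpx1 had 1423, 1672 and 1568 CPM in monocyte-like and 674, 626 and 890 CPM in macrophage-like cells (log2 fold change 1.02 ± 0.14 SE, adjusted p = 9.34e-12). Gpx4 had 567, 577 and 610 CPM against 335, 272 and 280 CPM (0.88 ± 0.16 SE, adjusted p = 1.12e-06), with the limit on its reads given above. All 3 mice showed this direction for both peroxidases.

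The thioredoxin arm did not pass the same test. Txnrd1 was 0.72 ± 0.43 SE (adjusted p = 0.333) and Txn1 0.32 ± 0.17 SE (adjusted p = 0.236) on the log2 scale, and each was higher in the monocyte-like cells of 2 of 3 mice. Both passed with sums of at least 10 cells, with log2 fold changes of 0.94 for Txnrd1 (adjusted p = 0.0464) and 0.56 for Txn1 (adjusted p = 0.00942). That setting also took in cKO replicates 6, 7 and 8, so it is no longer a comparison within control mice only. With sums of at least 20 cells but without control replicate 4, the value of Txn1 was 0.53 and passed (adjusted p = 0.0152). That of Txnrd1 was then 1.28 (adjusted p = 0.118). Prdx1 had -0.20 ± 0.14 SE (adjusted p = 0.433), Srxn1 -0.29 ± 1.03 SE, Gclm 0.00 ± 0.63 SE and Gclc -0.96 ± 1.04 SE, with wide errors for the sparse genes. Slc7a11 was higher in monocyte-like cells (1.5 ± 0.25 SE, adjusted p = 6.69e-08), while Slc3a2 had a log2 fold change of 0.01 ± 0.17 SE (adjusted p = 0.991).

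**Figure D3:**
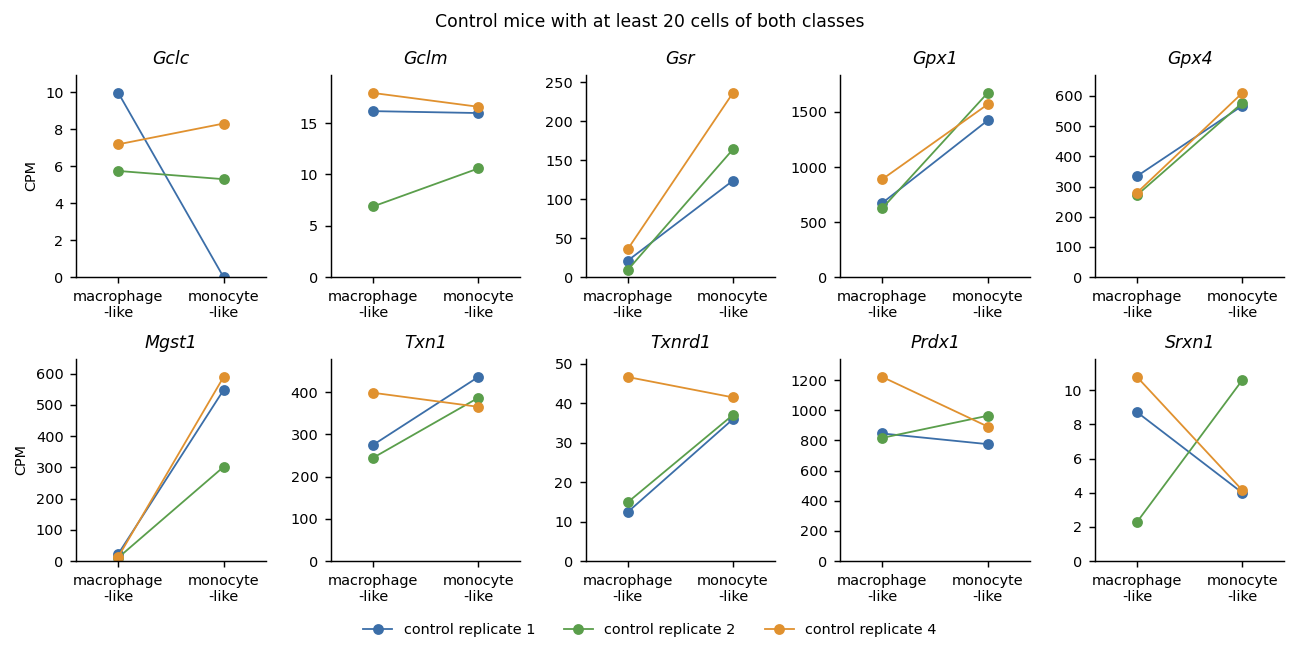
Level of each gene in CPM (y axis, from 0) in macrophage-like and monocyte-like cells of control replicates 1, 2 and 4, with a line for each mouse. The lines of Mgst1, Gsr, Gpx1 and Gpx4 rise in all 3 mice, while those of Gclc, Gclm, Txn1, Txnrd1, Prdx1 and Srxn1 run in both directions.

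The third comparison set cKO against control mice within each class with enough cells. No member passed the test in any of the 6 classes. The share of 11361 genes called in either direction was 0.722% in cluster 1, 0.29% in cluster 5, 0.334% in dendritic cell-like, 0.0528% in low-depth macrophage-like, 0.0704% in lymphoid-like and 0.334% in monocyte-like cells. At an unadjusted p under 0.05 there were 2 members in cluster 1, 1 in cluster 5, 1 in dendritic cell-like, 2 in monocyte-like and 0 in the remaining classes. The share of all genes at this cut was not counted, and the shares above are for an adjusted p. After adjustment, DESeq2 called Prdx1 in dendritic cell-like cells only. In simulated data with 200 genes changed 4-fold, the fit recovered 134 in cluster 1, 110 in dendritic cell-like and 87 in monocyte-like cells. It recovered 52 in cluster 5, 47 in lymphoid-like and 22 in low-depth macrophage-like cells, so 4-fold and smaller changes could be missed in every class. The simulation used 1 expression profile for all classes and the same dispersion for every gene, and it changed none of the least counted genes. It therefore gives no recovery rate for a single member.

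In monocyte-like cells, Mgst1 was nearly even, with 547, 302 and 589 CPM in control and 467, 536 and 378 CPM in cKO mice (log2 fold change 0.06 ± 0.29 SE, adjusted p = 1). Gsr had 124, 164 and 236 CPM in control and 275, 326 and 203 CPM in cKO mice, with overlap (0.75 ± 0.36 SE, adjusted p = 0.767). Srxn1 had 4.00, 10.6 and 4.15 CPM against 15.3, 25.2 and 25.6 CPM, from 4 UMIs in control and 31 UMIs in cKO mice (2.01 ± 0.76 SE, adjusted p = 0.552). Over all alternatives that gave an adjusted p for Srxn1, it was 0.205 to 0.937. Gpx4 had 567, 577 and 610 CPM in control and 442, 467 and 420 CPM in cKO mice (-0.27 ± 0.22 SE, adjusted p = 0.844), and it was the other member besides Srxn1 with an unadjusted p under 0.05 in DESeq2. Txn1 had 436, 386 and 365 CPM against 497, 489 and 474 CPM (0.42 ± 0.21 SE, adjusted p = 0.777). Srxn1, Txn1 and Gpx4 did not overlap between the groups, 2 above and 1 below, where 12.2% of all genes tested in these cells did not.

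In cluster 1, Mgst1 had 69.9, 79.6, 39.6 and 82.4 CPM in control and 37.5, 55.0, 34.7 and 20.3 CPM in cKO mice, the opposite direction to that in all cells (log2 fold change -1.05 ± 0.35 SE, adjusted p = 0.205). It was called without cKO replicate 6 alone (log2 fold change -1.42, adjusted p = 0.0411), and its adjusted p was up to 0.746 otherwise. The difference between its fold changes in cluster 1 and in monocyte-like cells was -1.11 ± 0.45 SE on the log2 scale and did not pass after adjustment (adjusted p = 1). That fit had no term for the mouse, although sums of both classes came from the same mice. Gpx4 had -0.53 ± 0.19 SE in cluster 1 (adjusted p = 0.325), with 251 to 403 CPM in control and 233 to 300 CPM in cKO mice.

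In cluster 5, with 2 control and 3 cKO mice, Txnrd1 had 74.3 and 96.4 CPM in control and 78.6, 157 and 177 CPM in cKO mice (log2 fold change 0.76 ± 0.37 SE, adjusted p = 0.778). Gsr had 111 and 114 CPM against 115, 155 and 146 CPM in the same cells (0.42 ± 0.44 SE, adjusted p = 0.931). Prdx1 had 511 to 602 CPM in control and 612 to 719 CPM in cKO mice (0.36 ± 0.27 SE, adjusted p = 0.860). Gsr and Prdx1 did not overlap between the groups in cluster 5, in the case of Gsr by less than 1 CPM, and with so few mice 22% of all genes tested did not. No member was free of overlap in cluster 1, dendritic cell-like, low-depth macrophage-like or lymphoid-like cells, where 4.22%, 8.29%, 5.16% and 9.22% of genes were.

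In dendritic cell-like cells Prdx1 had 616 to 838 CPM in control and 1028, 704 and 1907 CPM in cKO mice (0.63 ± 0.21 SE, adjusted p = 0.338). That value rested on cKO replicate 8, without which it was 0.09. Of the 735 Prdx1 UMIs of that sum, 418 were in 1 cell, which was not called a doublet, and the next highest dendritic cell-like cell had 75. Without that cell the level in cKO replicate 8 was 857 CPM and the log2 fold change 0.11 ± 0.19 SE (adjusted p = 0.953).

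Macrophage-like cells could be compared only from sums of at least 10 cells, since no cKO mouse had more than 17 of them. In that fit no member passed the test or had an unadjusted p under 0.05, and 0.0615% of 11391 genes were called. The log2 fold changes there were 1.11 ± 0.73 SE for Gsr (adjusted p = 0.749), -0.09 ± 0.78 SE for Mgst1 and -0.46 ± 0.26 SE for Gpx4 (adjusted p = 0.699). DESeq2 was not run on these sums.

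**Figure D4:**
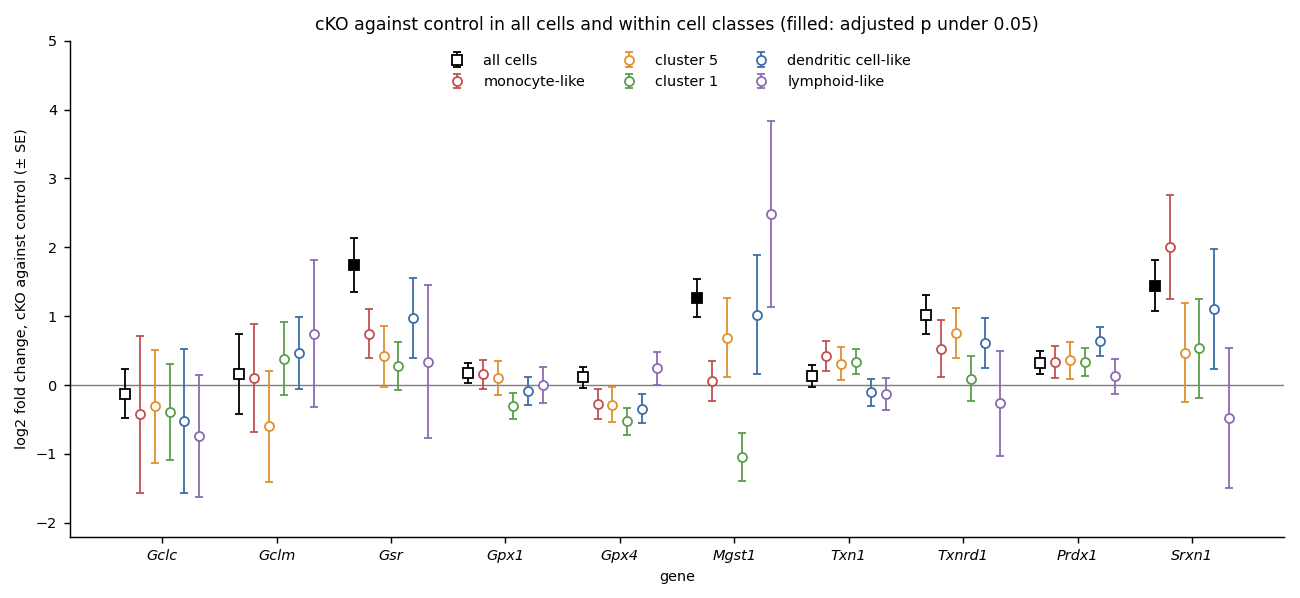
Log2 fold change of cKO against control mice (y axis, whiskers are an SE derived from the test statistic) for each gene in all cells (black squares) and within 5 classes (coloured circles), with filled symbols for an adjusted p under 0.05. The filled symbols are Gsr, Mgst1 and Srxn1 in all cells, and no symbol within a class is filled (low-depth macrophage-like cells are left out for their wide errors).

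Because the classes differed in size between the groups, a level given by the class make-up of each mouse was computed. It took for each class its pooled level over all 8 mice and its share of the UMIs of that mouse. Monocyte-like cells held 1.9 to 8.11% of the UMIs of a control mouse and 16.8 to 22.3% of those of a cKO mouse, cluster 7 held 0 to 0.501% and 1.85 to 24.1%, and dendritic cell-like cells held 33.5 to 46.7% and 7.25 to 16.9%. For Mgst1 the make-up gave means of 64.5 CPM in control and 151 CPM in cKO mice, where 63.7 and 144 CPM were observed. For Gsr it gave 50.3 and 128 CPM, where 44.7 and 133 CPM were observed. The pooled levels mix both groups in uneven shares, with 256 of 407 monocyte-like and 51 of 393 macrophage-like cells from cKO mice. For cluster 7 they are almost those of cKO mice alone. A change within such a class is therefore partly held in the given value, and the 2 cannot be told apart here.

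Expressed as the log2 ratio of cKO to control means, the given and observed values were 1.23 and 1.17 for Mgst1, 1.35 and 1.57 for Gsr, 0.72 and 0.85 for Txnrd1, and 0.83 and 1.21 for Srxn1. For 4 of the other 6 members both values were small, at 0.11 and 0.07 for Gpx1, 0.16 and 0.02 for Gpx4, 0.01 and 0.03 for Txn1, and -0.15 and 0.02 for Gclm. Prdx1 was given at -0.05 and observed at 0.22, and Gclc was given at 0.23 and observed at -0.37, so that both went the other way from the make-up. Slc7a11, which is not a member, was given at 1.27 and observed at 1.01. With cluster 7 left out, the log2 fold changes in all cells were 1.48 for Gsr (adjusted p = 0.0497), 1.11 for Mgst1 (adjusted p = 0.0403) and 1.27 for Srxn1 (adjusted p = 0.0630, no longer called). Without the lymphoid-like, stromal-like and dendritic cell-like cells, the values were 1.25 for Gsr (adjusted p = 0.0562), 0.99 for Mgst1 (adjusted p = 0.0605) and 1.36 for Srxn1 (adjusted p = 0.0866), and none was called.

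**Figure D5:**
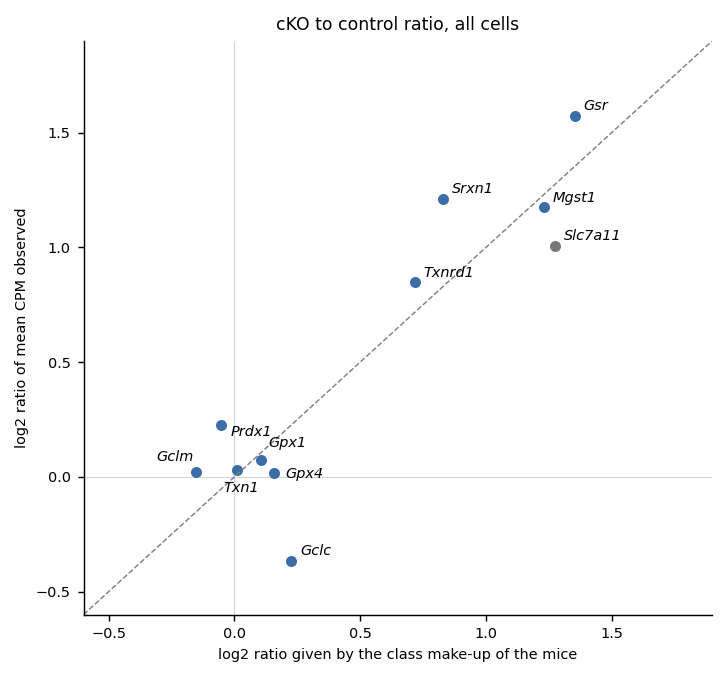
Log2 ratio of the cKO to the control mean CPM over all cells, as observed (y axis) against the ratio given by the class make-up of the mice (x axis), with equality as a dashed line, for the 10 genes (blue) and Slc7a11 (grey). Mgst1, Gsr, Srxn1 and Txnrd1 lie at the upper right in both, and the other 6 genes lie between -0.15 and 0.23 on the x axis.

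Genes of the same pathways outside the 10 members were counted from 7 lists in all cells summed. Of the 87 genes tested, 9 were higher and 1 was lower in cKO mice, where 2.99% of all 11387 genes were called higher and 1.48% lower. The median log2 fold change of the 87 genes was 0.12, against -0.03 over all genes and 0.25 over the 10 members. The lists were chosen with earlier results of these data known, so their counts are a description. In the list of glutathione synthesis and turnover, 2 of 8 genes tested were higher and 1 lower. Cndp2, a dipeptidase of the cytosol, had 31.0 ± 5.25 CPM (SD, n = 4) in control and 125 ± 63.4 CPM (SD, n = 4) in cKO mice (log2 fold change 2.14 ± 0.32 SE, adjusted p = 0.00471). Ggct, a cyclotransferase that acts on gamma-glutamyl peptides, had 14.5 ± 3.97 and 31.2 ± 6.24 CPM (1.21 ± 0.24 SE, adjusted p = 0.0198). Anpep, an aminopeptidase of the cell surface, had 41.0 ± 10.5 and 18.003 ± 5.05 CPM (-1.12 ± 0.26 SE, adjusted p = 0.0311).

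Among 18 further genes of the thioredoxin, peroxiredoxin and glutaredoxin list, 2 were higher and none lower. Msrb1, which reduces oxidised methionine, had 306 ± 89.8 CPM (SD, n = 4) in control and 735 ± 182 CPM (SD, n = 4) in cKO mice (log2 fold change 1.37 ± 0.23 SE, adjusted p = 0.00842). Prdx5, a peroxiredoxin of mitochondria and peroxisomes, had 556 ± 135 and 967 ± 170 CPM (0.90 ± 0.19 SE, adjusted p = 0.0234). Txnip, which binds thioredoxin, was the only gene of this list that was lower at an unadjusted p under 0.05 (-0.55 ± 0.18 SE, adjusted p = 0.104), and was named after its value was seen.

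The list of glutathione peroxidases and transferases went without a call, with 0 of 18 genes past the test by edgeR or DESeq2 and a median log2 fold change of -0.56. At an unadjusted p under 0.05, 4 of its genes were lower and 0 higher. Their log2 fold changes were not tested against that of Mgst1. In the selenoprotein list 0 of 9 genes passed with either tool, with 1 higher and 3 lower at an unadjusted p under 0.05. The share of all genes at that unadjusted cut was not counted, so these list counts have nothing to be set against.

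Of 7 genes of cystine and cysteine supply, 1 was higher: Slc7a8, a light chain for neutral amino acids that pairs with CD98hc, with 8.32 ± 1.33 CPM (SD, n = 4) in control and 18.4 ± 7.31 CPM (SD, n = 4) in cKO mice (log2 fold change 1.2 ± 0.29 SE, adjusted p = 0.0376). Among 17 genes of the NRF2 list, the ferritin subunits Fth1 (0.85 ± 0.20 SE, adjusted p = 0.0347) and Ftl1 (0.51 ± 0.13 SE, adjusted p = 0.0492) were higher. Among 10 superoxide and peroxide enzymes, Cybb (0.89 ± 0.14 SE, adjusted p = 0.00621) and Cyba (0.69 ± 0.15 SE, adjusted p = 0.0281), the membrane subunits of the phagocyte oxidase, were higher. Without the lymphoid-like, stromal-like and dendritic cell-like cells, 4 list genes were higher and 6 lower. Without cluster 7, 5 were higher and 1 lower.

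Leaving out 1 mouse at a time gave 3 to 13 list genes higher and 0 to 4 lower. There were 3 higher and 0 lower without control replicate 1, control replicate 2 or cKO replicate 7, and 4 higher and 1 lower without cKO replicate 6. Without control replicate 4 there were 13 higher and 4 lower, and none was lower without control replicate 3 or cKO replicate 8. Cndp2 and Msrb1 kept the call under every alternative. Cybb kept it whichever mouse was left out. Ggct lost it without control replicate 1, control replicate 2 or cKO replicate 7 (adjusted p = 0.0738, 0.0801 and 0.0779). Prdx5 lost it without control replicate 1, control replicate 2, cKO replicate 6 or cKO replicate 7 (adjusted p = 0.0784, 0.0903, 0.0593 and 0.0769). Anpep was not called without control replicate 1, 2 or 3 or cKO replicate 7 or 8 (adjusted p = 0.0519, 0.120, 0.0518, 0.109 and 0.0876), and Slc7a8 not without control replicate 1 or 2 or cKO replicate 5, 6 or 7 (adjusted p = 0.104, 0.137, 0.0530, 0.0512 and 0.149). Cyba was not called without control replicate 1 or 2 or cKO replicate 6, 7 or 8 (adjusted p = 0.0751, 0.113, 0.0614, 0.0868 and 0.0803). Fth1 was not called without control replicate 1, 2 or 3 or cKO replicate 6, 7 or 8 (adjusted p = 0.104, 0.128, 0.0569, 0.0505, 0.0827 and 0.0741). Ftl1 was called with every mouse and without control replicate 4, and its adjusted p was otherwise 0.0686 to 0.188 on leaving out a mouse.

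Changes of the cells or of the filter ended further calls. Without lymphoid-like, stromal-like and dendritic cell-like cells the log2 fold changes were 0.32 for Cybb, 0.18 for Ftl1, 0.48 for Slc7a8, 0.55 for Prdx5, 0.48 for Fth1 and 0.49 for Cyba, and none of these was called (adjusted p = 0.315, 0.532, 0.428, 0.119, 0.148 and 0.106). Without doublet calls, Anpep, Fth1, Ftl1 and Cyba were not called (adjusted p = 0.0507, 0.0931, 0.145 and 0.107). Without both small libraries the same held for Anpep, Slc7a8 and Ftl1 (adjusted p = 0.0585, 0.0541 and 0.0843). Without cluster 7 it held for Ggct, Slc7a8, Fth1 and Ftl1 (adjusted p = 0.0514, 0.0510, 0.0516 and 0.0641), and with no filter on low counts for Ftl1 (adjusted p = 0.0645).

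Over the 45 sums per mouse and class, the genes whose log2(CPM + 10) ran closest to that of a member were named for the 7 members with a mean of at least 50 CPM. Gsr ran closest to F10 (Pearson r = 0.91) and Eno1 (r = 0.90), Mgst1 to Ggh (r = 0.83) and Aldh2 (r = 0.81), and Txnrd1 to Alas1 (r = 0.79) and Sod2 (r = 0.78). Gpx1 ran closest to Arpc1b (r = 0.92) and Alox5ap (r = 0.91), Prdx1 to Uqcrb (r = 0.79) and Cdc42 (r = 0.75), Gpx4 to Kdelr2 (r = 0.69) and Emp3 (r = 0.68), and Txn1 to Gm10053 (r = 0.70) and Cycs (r = 0.68). Sums of 1 mouse share a library, and sums of 1 class share a cell type and a depth, so these values describe the 45 sums and carry no test.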

How the data were processed

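The authors aligned reads with Cell Ranger and STAR 2.5.3a to mm10 with EYFP added, and the deposited table holds whole-number UMI counts for each gene in each cell, from all wells merged without down-sampling. Of 16889 genes, 89 had no symbol. Columns were joined to mice by the well they name. Cells were kept at a log10 UMI count of at least 2.8, a log10 gene count of at least 2.6, at most 5% mitochondrial UMIs and no hemoglobin UMI. Scrublet (scanpy 1.11.5) calls were kept in the main results.

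Clusters (scran 1.30.0, Ward, 9 clusters) were formed without members and list genes, and named from markers under a rule set after they were seen (at least 2 markers of a type among the leading 10 genes). Counts were summed per mouse, or per mouse and class from 20 cells, and tested with edgeR 4.0.16 (TMM, quasi-likelihood) under R 4.3.3 at a false discovery rate of 0.05, over genes above 1 CPM in at least 3 sums and seen in at least 20 cells. All classes entered 1 model. Each SE printed with an edgeR log2 fold change is that fold change, without its sign, divided by the square root of its F statistic. It is therefore tied to the p-value and is unreliable for sparse genes. The fits were tested on simulated data. DESeq2 1.42.0 and limma 3.58.1 were alternatives. Values of CPM were computed from the counts kept, and floors cover counting error only. Gclm, Gsr and Txnrd1 overlap Gm6061, Gm24727 and Eid3 on the same strand. Genes named are the members, Slc3a2, Slc7a11, list genes past the threshold in all cells and the 2 closest genes per member. Members and lists were chosen with earlier results of these data known.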

Additional observations from a re-analysis of the deposited data

Results flagged for a closer look

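Of 50 groups of 4 or more mice examined, 1 held a sample far from the others. In all cells, Srxn1 in control replicate 4 was at 8.41 CPM, where the nearest control mouse was at 5.09 CPM, and the gap was 0.853 of the whole range of the group, above Dixon's critical value at the 95% level. About 1 in 20 groups would be marked by chance. Srxn1 was called higher in cKO mice with this library, and without it the log2 fold change was 1.74 (adjusted p = 0.0253, edgeR).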

How the results depend on the processing

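No paired analysis was possible because the labels give no pairing of control with cKO mice. The paper describes the mice as littermates, but the litter of each is not in the labels. The comparison of monocyte-like with macrophage-like cells had the mouse as a block, and without that block the same 4 members were called and Gclm turned to 0.13.

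Over all cells, 510 genes were called, against 787 with no filter on low counts, 335 without lymphoid-like, stromal-like and dendritic cell-like cells, 333 without cluster 7, and 155 to 738 on leaving out 1 mouse. Members called higher fell from 3 to 0 without lymphoid-like, stromal-like and dendritic cell-like cells, were 2 without doublet calls, with cells of up to 10% mitochondrial UMIs, without both small libraries or without cluster 7, and were 0 to 4 on leaving out 1 mouse. List genes called higher fell from 9 to 5 without cluster 7 and to 4 without those 3 cell types, and were 3 to 13 on leaving out 1 mouse, and those called lower went from 1 to 3 with no filter, 0 without doublet calls, 6 without those 3 cell types, and 0 to 4 on leaving out 1 mouse. Between monocyte-like and macrophage-like cells, 1473 genes were called, 568 with DESeq2 and 685 to 1168 without 1 mouse, with 4 to 5 members called. Over the classes together, cKO against control called 205 genes, 349 with each class fitted alone, 314 with limma-voom and the mouse as a random term, 557 with no filter, and 108 to 264 without 1 mouse. Members called in cluster 1 were 0 to 1 without 1 mouse, and DESeq2 called 1 in dendritic cell-like cells. The cause of these changes was not tested.

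Log2 fold changes that turned were all below the threshold. In all cells Gpx4 turned to -0.045 without lymphoid-like, stromal-like and dendritic cell-like cells, and leaving out 1 mouse gave -0.48 to 0.080 for Gclc and -0.27 to 0.71 for Gclm. Between monocyte-like and macrophage-like cells, clustering on all genes gave 0.23 for Gclc, 0.028 for Prdx1 and 0.52 for Srxn1, sums of at least 10 cells gave 0.18 for Gclm, 0.016 for Prdx1 and 0.52 for Srxn1, and Gclm was 0.059 with DESeq2, 0.0094 with RLE scaling and 0.43 with graph clustering. Leaving out 1 mouse gave -0.14 to 0.078 for Gclm and -1.26 to 0.27 for Srxn1 there. For this pair of classes, sums of at least 10 cells also took in cKO replicates 6, 7 and 8. In monocyte-like cells Mgst1 turned to -0.056 with DESeq2, -0.060 with RLE scaling, -0.0050 with sums of at least 10 cells, and -0.15 to 0.22 without 1 mouse. Leaving out 1 mouse gave -0.36 to 0.53 for Gsr and -0.067 to 0.97 for Srxn1 in cluster 1, and -0.43 to 1.09 for Mgst1 and -0.021 to 0.71 for Srxn1 in cluster 5. The values without both small libraries, without cluster 7 and from sums of at least 10 macrophage-like cells, those given by class make-up, and those without 1 Prdx1-rich cell, were chosen after seeing the data. For named genes, 711 alternative values stayed the same, fold changes and mean levels per class counted together. For a fold change this means the same direction and side of the threshold, and for a level a shift within 1 SD. Of the other values, 29 fold changes turned, 74 lost the call, 8 gained it, and 13 levels moved further than 1 SD. Depth limited Gclc, Gclm and Srxn1 most, with 105, 330 and 169 UMIs over all mice.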
